A study of Enchytraeus crypticus with 60 samples.

Results

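The 100 probes described here were those with more signal after exposure of the soil worm *Enchytraeus crypticus* to 2 kinds of silver particles than after exposure to silver nitrate. They were chosen by their measured values. The level E of a probe was the log2 of its processed signal minus the median of the array, and D was the group mean of E with a particle minus that with silver nitrate of the same dose and day. There were 8 such differences, because both materials, Ag-NPs PVP-Coated (with a shell of polyvinylpyrrolidone) and Ag-NPs Non-Coated, were given at 2 doses and sampled on 2 days. Of 23179 probes that were above background on all 60 arrays, out of 43750 gene probes, 455 (1.96%) had all 8 D above 0, and the 100 with the highest mean D among them are the members. For comparison, 1011 probes (4.36%) had all 8 D below 0.

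The series holds 60 arrays in 20 groups of 3, and each array measured RNA from a pool of 20 whole worms kept in LUFA 2.2, a natural standard soil. Worms were exposed for 3 or 7 d to AgNO3, Ag-NPs Non-Coated, Ag NM300K or Ag-NPs PVP-Coated, each at the concentration that lowers reproduction by 20% (EC20) or by 50% (EC50). The controls, without silver and sampled on both days, were un-spiked soil (Control) and soil to which only the dispersing agent of Ag NM300K was added (Control dispersant). The effect concentrations belong to each material, and by the study's methods both particle materials were dosed at a higher mass of silver than AgNO3 at the same EC, with Ag NM300K in between, so that the form of silver and its mass in the soil cannot be told apart. The 36 arrays of AgNO3 and of both particles chose the members, and values in them are given as a description with no test. The 24 arrays of the controls and of Ag NM300K did not enter the choice and were tested. The tests compare these arrays, but the spread of a probe was estimated over all 60 arrays, so that counts of calls are also given for a fit to the 24 alone.

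*E. crypticus* is a small white oligochaete used in standard tests of soil toxicity. Silver nitrate is a soluble salt that brings silver ions into the soil water at once, whereas particles release ions slowly and can also meet the worm as particles. Polyvinylpyrrolidone is a polymer that keeps particles from sticking to each other, and Ag NM300K is a reference nanomaterial delivered in a dispersant. The files identify a probe by the assembled contig or the single sequence read from which it was designed and pair no probe with a gene, so that roles are not given here. Probes are named by that identifier. In RNA of whole worms, fewer cells of a type and less RNA per cell cannot be told apart.

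The members had a median mean D of 0.58 on the log2 scale, from 0.45 to 1.49, and 4 of them had a mean D above 1. The median mean D of all kept probes was -0.03, and 41.8% of them had a mean D above 0. Normexp background correction subtracts the local background of a spot, models the rest over the array and adds an offset of 50 to every spot. With it the median mean D of the members was 0.26. Of the members, 38 kept all 8 D above 0, and the rule chose 34 again. An added offset makes log2 differences smaller, most of all in dim probes, and its part in these values was not tested. The rule asks for a steady sign, and its members were not the probes with the largest mean D, since 25 of the 100 kept probes with the highest mean D met it. The cut fell in a dense range, because the member of rank 100 (GYUW2K402G8FZB) had a mean D of 0.451 and the next probe (contig25073, no member) had 0.448. Many members were close to 0 in at least 1 comparison. The lowest of the 8 D was above 0.1 in 59 members and above 0.2 in 31, with a median of 0.13.

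On the arrays that chose the members, D was larger after 3 d than after 7 d. Replicates left out of the choice, described below, did not all have this order. At 3 d the median D of the members was 0.65 (EC20) and 0.77 (EC50) for Ag-NPs PVP-Coated, and 0.80 (EC20) and 0.72 (EC50) for Ag-NPs Non-Coated. At 7 d the same medians were 0.44, 0.39, 0.34 and 0.34. The mean D at 3 d exceeded that at 7 d in 83 members, with a median excess of 0.37, while it did so in 46.4% of all kept probes. Dose and coating had little common direction over the members. The mean D at EC50 minus that at EC20 had a median of 0.04, with 55 members above 0, beside 55.4% of all kept probes. Its quartiles over the members were -0.23 and 0.31, so that single members differed by dose in either direction. The mean D of coated minus non-coated particles had a median of 0.003 and quartiles of -0.09 and 0.12. It was above 0 in 51 members, beside 58.0% of all kept probes. All of these differences share their AgNO3 arrays between both particles.

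**Figure D1:**
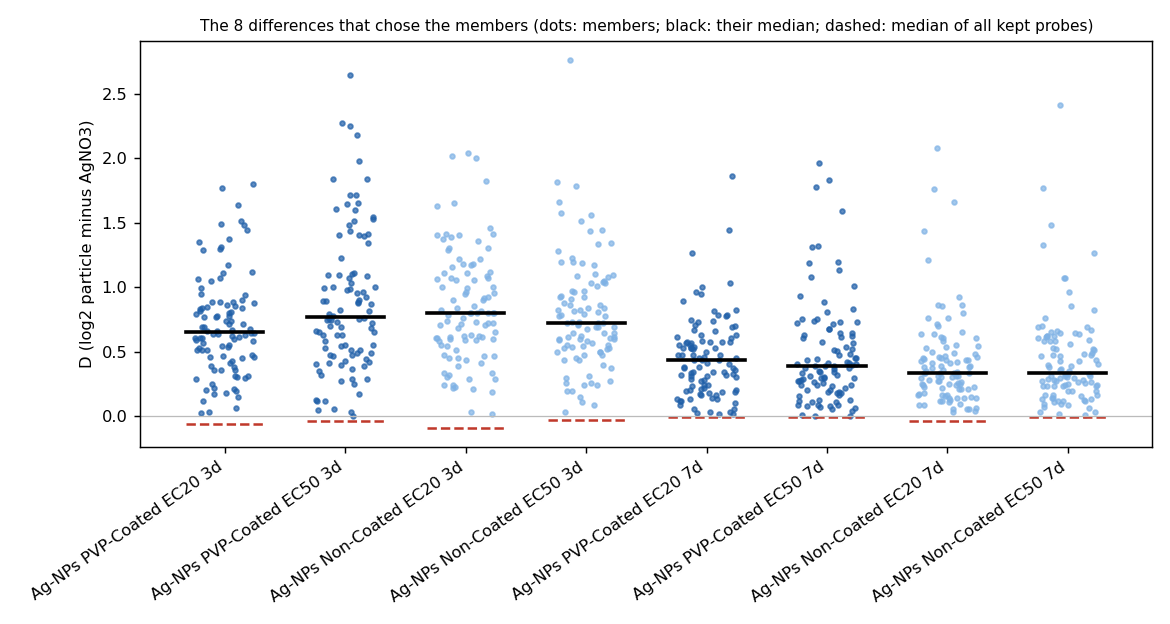
The 8 differences D of the 100 members, in log2 units of a particle group minus AgNO3 of the same dose and day, with the members as dots, their median as a black line and the median of all kept probes as a dashed line. The medians of the members lie between 0.65 and 0.80 at 3 d and between 0.34 and 0.44 at 7 d, and every dot is above 0 because the rule asked for it.

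The same measure in arrays that had not taken part in the choice was smaller. The rule was applied to 2 of the 3 replicate numbers of the 12 groups, and D was read in the third. With replicate 1 left out, the 100 probes chosen had a median mean D of 0.57 in the arrays that chose them and of 0.37 in replicate 1, where 86 of them were above 0. With replicate 2 left out the medians were 0.76 and 0.33, with 89 above 0. With replicate 3 left out they were 0.61 and 0.15, with 60 above 0. Of all kept probes, 49.6%, 46.4% and 38.8% had a mean D above 0 in replicates 1, 2 and 3, with medians of -0.003, -0.01 and -0.07. All 8 D were above 0 in the left-out replicate for 13, 6 and 7 of the 100 probes, against 2.75%, 0.690% and 0.867% of all kept probes. The order of the days was not steady in the left-out replicate. In replicate 1 the medians of D were 0.01 to 0.73 at 3 d and 0.24 to 0.34 at 7 d. In replicate 2 they were 0.20 to 0.76 at 3 d and -0.11 to 0.16 at 7 d. In replicate 3 they were -0.22 to 0.04 at 3 d and 0.06 to 0.38 at 7 d. These lists shared 43, 52 and 36 probes with the members, so that which probes are members depended on each set of arrays.

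**Figure D2:**
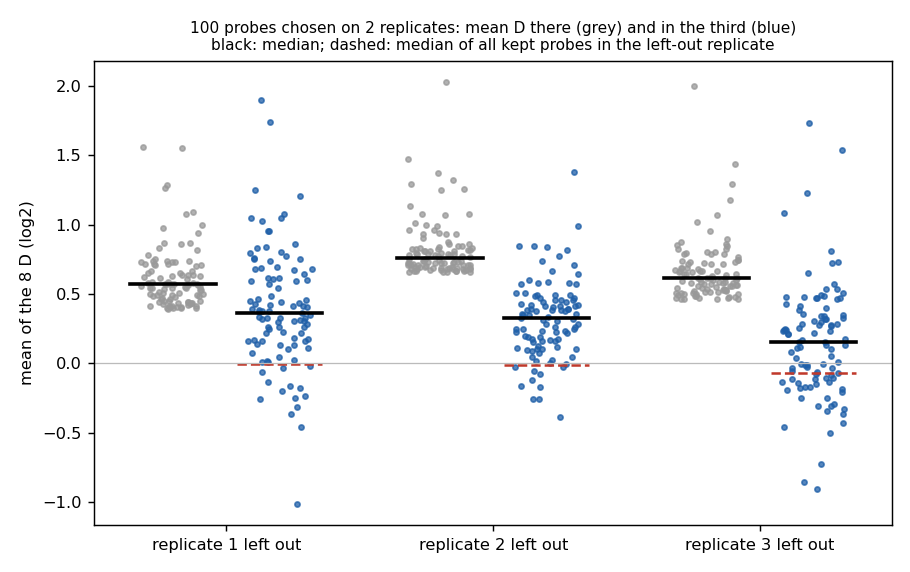
Mean of the 8 D, in log2 units, of 100 probes chosen on 2 replicate numbers, in the arrays that chose them (grey) and in the replicate number left out (blue), with medians as black lines and the median of all kept probes in the left-out replicate as a dashed line. The left-out medians of 0.37, 0.33 and 0.15 are below those in the choosing arrays, 0.57, 0.76 and 0.61.

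Slides and scan days mixed the groups. All 8 comparisons had arrays of both groups on at least 1 scan day, which gave 12 within-day values. Their median over the members lay between 0.36 and 0.92, with 74 to 96 members above 0, while that over all kept probes lay between -0.09 and 0.01. With the slide as a block the median mean D of the members was 0.60, all 100 had a mean D above 0, and 42 kept all 8 D above 0. With the scan day as a block these values were 0.59, 100 and 85. All of these values rest on the particle and AgNO3 arrays that chose the members. A mean D above 0 was thus largely set by the choice, and the values are a description with no test.

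Across the 20 groups, the members were lowest in silver-free soil, higher with AgNO3, higher again with Ag NM300K and highest with both particles. At 3 d the mean E over the members was -0.98 ± 0.10 (SD, n = 3) in Control and -0.88 ± 0.33 in Control dispersant. With AgNO3 at 3 d it was -0.75 ± 0.26 at EC20 and -0.65 ± 0.44 at EC50. Ag NM300K gave -0.17 ± 0.09 at EC20 and -0.27 ± 0.19 at EC50. The particles reached the highest means, which were -0.04 ± 0.14 (EC20) and 0.24 ± 0.09 (EC50) with a coating and 0.10 ± 0.28 (EC20) and 0.14 ± 0.29 (EC50) without one. Single arrays of the particles, from -0.21 to 0.37, overlapped those of Ag NM300K, from -0.47 to -0.09. The single arrays of AgNO3 EC50 spread from -1.06 to -0.19 and thereby reached from the level of Control to that of Ag NM300K, so that AgNO3 and silver-free soil did not separate beyond their spread at 3 d.

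At 7 d the members stood higher in every group and the groups lay closer together. The mean E was -0.37 ± 0.13 in Control, -0.21 ± 0.17 in Control dispersant, -0.07 ± 0.14 with AgNO3 EC20 and -0.06 ± 0.03 with AgNO3 EC50. With Ag NM300K it was 0.17 ± 0.10 at EC20 and 0.29 ± 0.05 at EC50. The particle groups had means of 0.36 to 0.43, and their single arrays, from 0.21 to 0.64, lay above all arrays of AgNO3, of which the highest was 0.06. The lowest particle array (0.21) fell among those of Ag NM300K, which ran from 0.05 to 0.35. The mean E of all kept probes stayed between 0.52 and 0.60 in the 20 groups. Over the kept probes, the median signal lay between 70.4 and 139 on the 60 arrays, and the arrays of AgNO3 at 3 d (72.8 to 105) overlapped those of the particles at 3 d (70.8 to 120). At 7 d the array medians were 94.5 to 115 with AgNO3 and 98.3 to 139 with the particles. The share of members well above background was 66.0% to 97.0% on the arrays of AgNO3 EC50 at 3 d and 97.0% to 100% on all particle arrays of 3 d. The part of the array's signal in these differences was not tested.

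**Figure D3:**
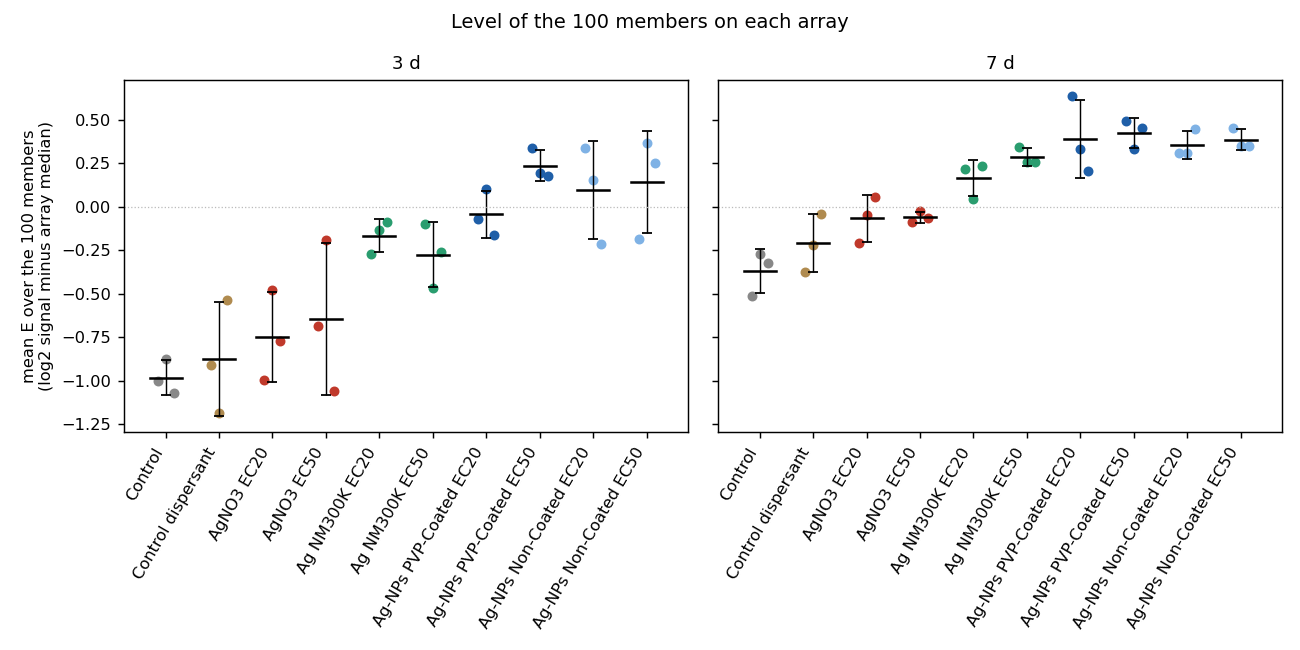
Mean E over the 100 members (log2 signal minus array median) on each array, with a dot per array, a black line at the group mean and bars of 1 SD (n = 3), for 3 d on the left and 7 d on the right. The group means run at 3 d from -0.98 in Control to 0.24 in the coated particles at EC50, and from -0.37 to 0.43 in the same groups at 7 d.

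Set against un-spiked soil, a member could differ between particles and AgNO3 because the particles were above Control, because AgNO3 was below it, or both. At 3 d, averaged over doses and over both particles, 61 members had Control below AgNO3 and AgNO3 below the particles, 32 had AgNO3 below and the particles above Control, and 7 had both below Control. At 7 d these numbers were 77, 20 and 3. The rule leaves no member with AgNO3 at or above the particles. Among the kept probes with AgNO3 below the particles, the same orders made up 46.8%, 23.3% and 29.9% at 3 d and 53.5%, 18.9% and 27.6% at 7 d, and no test was made on this contrast, which the rule used in part. The median of particles minus Control was 0.94 at 3 d (93 members above 0) and 0.65 at 7 d (97 above 0), while the median of AgNO3 minus Control was 0.15 at 3 d (61 above 0) and 0.24 at 7 d (77 above 0). Over all kept probes these 4 medians lay between -0.01 and 0.02. Leaving out Control 3d replicate 2 raised the median of AgNO3 minus Control at 3 d to 0.31. On the scale of SVCD normalization, the study's method that scales arrays first within each group on all probes and then between groups on probes without variation, the medians of particles and of AgNO3 minus Control at 3 d were 1.35 and 0.36. With normexp the medians of particles minus Control were 0.36 at 3 d and 0.28 at 7 d, and that of AgNO3 minus Control at 7 d was 0.052.

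GYUW2K401DLQ92 (CUST_24211_PI427420766_b) had the highest mean D, 1.49. At 3 d and EC20 its E in replicates 1, 2 and 3 was -0.38, -1.99 and 0.02 with AgNO3, against 1.05, -0.03 and 0.16 with Ag-NPs PVP-Coated and 1.49, 0.22 and 0.90 with Ag-NPs Non-Coated. At 7 d and EC50 it was -0.15, -0.36 and 1.08 with AgNO3, against 2.28, 2.50 and 1.13 with Ag-NPs PVP-Coated and 3.14, 3.30 and 1.36 with Ag-NPs Non-Coated. At the first of these settings AgNO3 overlapped the coated particles and lay below the non-coated ones, and at the second it lay below both, although replicate 3 of AgNO3 (1.08) came close to replicate 3 of both particles. In silver-free soil the same probe was lower at 7 d than at 3 d on average. Control went from -0.03, 0.20 and 0.16 at 3 d to -1.45, -0.91 and -0.70 at 7 d, and Control dispersant from 0.12, 0.51 and -0.67 to -1.68, -2.06 and -1.96. Neither change passed the test, with -1.13 ± 0.67 (log2 fold change ± SE, limma, adjusted p = 0.332) and -1.89 ± 0.67 (adjusted p = 0.0704).

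The second member, GYUW2K401CLOKO (CUST_61278_PI427420766_b), had a mean D of 1.44. At 7 d its E was -0.89, -0.36 and 1.02 with AgNO3 EC20 and -0.27, 0.52 and -0.01 with AgNO3 EC50. With Ag-NPs PVP-Coated at 7 d it was 2.15, 1.83 and 1.39 at EC20 and 1.73, 1.74 and 2.65 at EC50, and with Ag-NPs Non-Coated it was 1.54, 1.13 and 3.33 at EC20 and 1.7, 1.5 and 1.49 at EC50. All 12 particle arrays of 7 d were thus above all 6 of AgNO3. Silver-free worms of 7 d had the level of AgNO3, with 0.49, 0.11 and -0.37 in Control.

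GYUW2K401E1L4C (CUST_31471_PI427420766_b), the third, differed mostly at EC50. With AgNO3 EC50 it measured 0.63, -0.07 and -1.81 at 3 d and -0.37, -0.40 and -0.23 at 7 d. With AgNO3 EC20 it measured 0.42, 0.51 and 1.37 at 3 d and 1.05, 1.28 and 0.82 at 7 d, at or above the level of Control at 7 d (0.89, 1.04 and 0.33). In both particles its group means were 1.31 to 1.56. At EC50, AgNO3 was below and the particles above the mean of Control (0.42 at 3 d and 0.76 at 7 d), and its D at EC50 was 1.77 to 1.98 against 0.26 to 0.74 at EC20.

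contig04011 (CUST_9039_PI427420766_b) was the member furthest below Control with AgNO3, by 0.65 in the mean of both days. Its E with AgNO3 EC50 was -1.46, -1.83 and -2.26 at 3 d and -1.5, -1.93 and -1.12 at 7 d, below all arrays of Control, which ran from -1.06 to -0.16. With AgNO3 EC20 it was -1.26, -0.33 and -0.31 at 3 d, and the particle groups had means between -0.48 and -0.14.

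GYUW2K402FYARD (CUST_82173_PI427420766_b) was the member furthest above Control with particles, by 2.93 in the mean of both days. At 3 d its E was -1.27, -2.68 and -3.45 in Control. It was 0.79, 2.83 and -0.38 with AgNO3 EC20, 1.30, 2.15 and -2.07 with AgNO3 EC50 and between 0.45 and 3.04 on the 12 particle arrays. At 7 d Control had already reached 1.49, 1.6 and 2.21, and the particles 2.51 to 3.74. In this member every form of silver stood above un-spiked soil at 3 d on average, and AgNO3 overlapped the particles.

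GYUW2K402F97GP (CUST_24932_PI427420766_b) gave the most array signal of all members, with a mean log2 signal of 14.3, which is no measure of RNA amount between probes. Its mean E at 3 d was 6.29 ± 0.47 in Control, 7.24 ± 0.11 and 7.14 ± 0.91 with AgNO3 EC20 and EC50, and 7.69 to 8.10 in the 4 particle groups. At 7 d the same means were 7.29 ± 0.08, 7.80 ± 0.09, 8.02 ± 0.17 and 8.16 to 8.41.

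**Figure D4:**
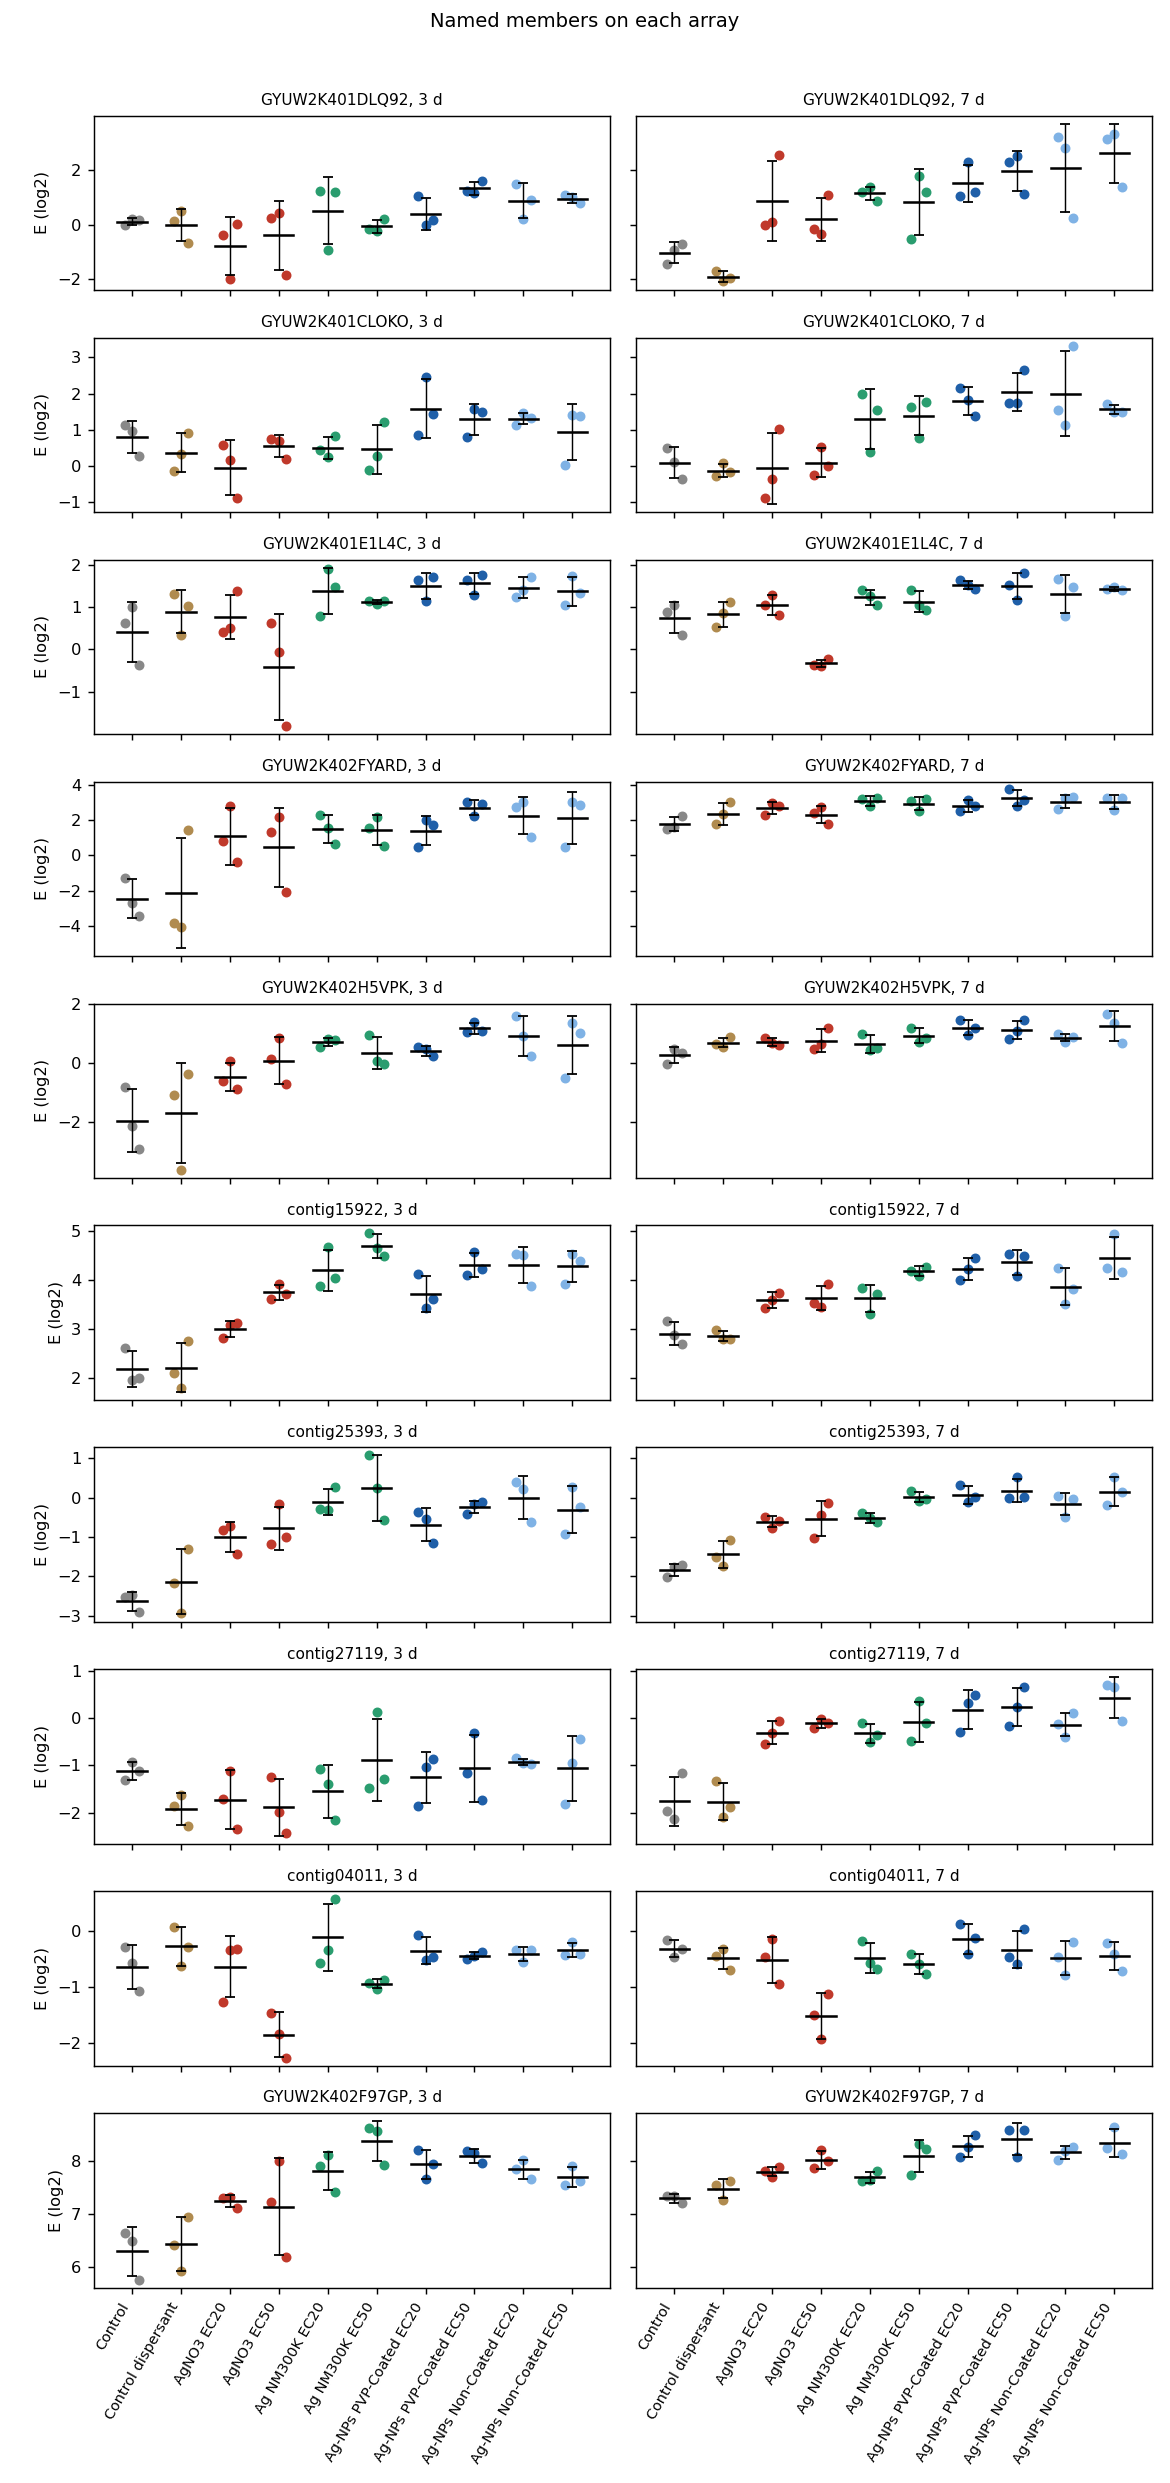
E (log2 signal minus array median) of the named members on each array, with a dot per array, a black line at the group mean and bars of 1 SD (n = 3), for 3 d on the left and 7 d on the right. GYUW2K402FYARD stands at -2.47 in Control at 3 d and at 1.77 at 7 d, whereas GYUW2K401E1L4C and contig04011 stand lowest with AgNO3 EC50.

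Ag NM300K did not choose the members, and it was compared with soil that held its dispersant. At 3 d, 12 of the 100 members were called higher at EC20 and 12 at EC50, and none was called lower at either dose, at a false discovery rate below 5% over all kept probes. Among all kept probes 0.492% were called higher and 0.764% lower at EC20, and 0.47% higher and 0.742% lower at EC50. The 2 doses had 8 called members in common, beside 39 (0.168%) of all kept probes, and they share their control arrays. The median log2 fold change of the members was 0.62 at EC20, with 92 above 0, and 0.38 at EC50, with 76 above 0, against -0.02 and 0.01 over all kept probes. Of the members, 35 and 36 had an unadjusted p under 0.05 at EC20 and EC50, beside 12.9% and 12.4% of all kept probes. The fit to the 24 arrays alone called 5 members at EC20 and 9 at EC50, with 0.0992% and 0.173% of all kept probes called higher. Without Control dispersant 3d replicate 2, or without Ag NM300K EC20 3d replicate 1, the count at EC20 was 6. Beside it, 0.276% and 0.194% of all kept probes were called higher. Without Control dispersant 3d replicate 3 the count at EC50 was 23, beside 1.96% of all kept probes. With normexp background correction the counts were 1 and 8, beside 0.0173% and 0.0863% of all kept probes called higher. The medians of the members were then 0.20 and 0.12. The methods' t-test called 0 members, and 0% of all kept probes, in each of these comparisons.

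At 7 d fewer members were called with Ag NM300K, 1 at EC20 and 4 at EC50, all higher. The shares of all kept probes were 0.0733% higher and 0.155% lower at EC20, and 0.475% higher and 0.401% lower at EC50. The median log2 fold change of the members was 0.31 at EC20 (79 above 0) and 0.38 at EC50 (87 above 0), beside 0.01 and 0.04 over all kept probes. With normexp 0 members were called at either dose, beside 0.00863% of all kept probes called higher at each. The methods' t-test called 0 members, and 0% of all kept probes higher, at either dose. The fit to the 24 arrays alone called 0 at EC20 and 1 at EC50, beside 0% and 0.0129% of all kept probes. On the scale of SVCD normalization 12 members were called at EC50, where the median of all kept probes moved up by 0.14 and 5.32% of all kept probes were called higher. Leaving out any 1 of the 6 arrays of the EC20 comparison ended its call, with 0% to 0.0216% of all kept probes called higher. At EC50 the count was 0 to 3 with 1 array left out, and 2 or fewer without any array but Ag NM300K EC50 7d replicate 2. The share of all kept probes called higher was then 0% to 0.725%. The change of the Ag NM300K effect between 3 and 7 d was tested by itself, and 0 of the members were called at EC20 or at EC50 by limma, with 0.263% and 0.587% of all kept probes called. At an unadjusted p under 0.05 there were 20 members at each dose, beside 11.0% and 14.8% of all kept probes. A difference in the response of the members between days was thus not shown. Within scan days, the 6 values over the 4 comparisons of Ag NM300K had medians of 0.33 to 0.68, with 67 to 95 members above 0. Over all kept probes these medians were -0.03 to 0.08, with 46.3% to 55.8% above 0.

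In all, 18 members were called higher with Ag NM300K in at least 1 of the 4 comparisons, as were 1.25% of all kept probes. The member called with the lowest adjusted p was contig15922 (CUST_14959_PI427420766_b), named after its values were seen, as are the next 2. Its E was 2.10, 1.79 and 2.76 in Control dispersant at 3 d, 3.88, 4.68 and 4.05 with Ag NM300K EC20 and 4.96, 4.66 and 4.49 with EC50, with no overlap. Its log2 fold changes were 1.99 ± 0.24 (SE, adjusted p = 6.5e-06) and 2.48 ± 0.24 (adjusted p = 1.1e-08). At 7 d it was 1.32 ± 0.24 at EC50 (adjusted p = 0.00602), and 0.76 ± 0.24 at EC20, where the adjusted p was 0.186. On the arrays that chose it, contig15922 had means of 3.01 and 3.76 with AgNO3 EC20 and EC50 at 3 d and of 3.72 to 4.31 with particles, above 2.19 in Control.

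contig25393 (CUST_3884_PI427420766_b) was called in the same 3 comparisons. At 3 d it measured -2.16, -2.93 and -1.30 in Control dispersant, -0.29, -0.32 and 0.26 with Ag NM300K EC20 and 1.07, 0.24 and -0.58 with EC50. Its log2 fold changes at 3 d were 2.02 ± 0.34 (adjusted p = 0.00126) and 2.38 ± 0.34 (adjusted p = 2.6e-05), and at 7 d and EC50 it was 1.45 ± 0.34 (adjusted p = 0.0224). contig27119 (CUST_886_PI427420766_b) was called at 7 d and EC50, where it measured -0.49, 0.36 and -0.10 against -1.32, -2.09 and -1.88 in Control dispersant (1.69 ± 0.38, adjusted p = 0.0212). At 3 d and EC50 its adjusted p was 0.184.

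Among the members named for their D, the first was called with Ag NM300K at 7 d. GYUW2K401DLQ92 measured 1.19, 1.36 and 0.87 at EC20 and -0.54, 1.79 and 1.20 at EC50, against -1.68, -2.06 and -1.96 in Control dispersant. Its log2 fold changes were 3.04 ± 0.67 (adjusted p = 0.0358) and 2.71 ± 0.67 (adjusted p = 0.037), and at 3 d they were 0.52 and -0.06. For GYUW2K401CLOKO the fold changes at 7 d were 1.44 and 1.52, with adjusted p of 0.215 and 0.116, and those of GYUW2K401E1L4C were 0.23 to 0.49 over both doses and days, with adjusted p of 0.635 to 0.897. contig04011 had -0.66 ± 0.26 with Ag NM300K EC50 at 3 d (adjusted p = 0.229).

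GYUW2K402FYARD was called higher with Ag NM300K at 3 d by 3.65 ± 0.89 at EC20 (adjusted p = 0.0275) and 3.58 ± 0.89 at EC50 (adjusted p = 0.0258). In Control dispersant at 3 d it measured -3.82, -4.05 and 1.44. Replicate 3 thus lay among the values with Ag NM300K, which were 0.54 to 2.28, and the groups overlapped. GYUW2K402H5VPK (CUST_72468_PI427420766_b), which shared with it the highest number of called tests (4), measured -1.11, -3.65 and -0.39 in Control dispersant, 0.54, 0.81 and 0.80 with Ag NM300K EC20 and 0.95, 0.08 and -0.04 with EC50, with log2 fold changes of 2.43 ± 0.49 (adjusted p = 0.00609) and 2.05 ± 0.49 (adjusted p = 0.0185). Another of the 6 members with 4 calls was GYUW2K402F97GP, whose log2 fold changes at 3 d were 1.38 ± 0.27 (adjusted p = 0.0044) and 1.94 ± 0.27 (adjusted p = 1.7e-05).

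Against the arrays that chose the members, Ag NM300K stood between AgNO3 and the particles. Its mean E exceeded that of AgNO3 in 81 and 69 members at 3 d (EC20 and EC50) and in 75 and 91 at 7 d. Of all kept probes, 46.8% and 50.4% did so at 3 d and 45.6% and 55.3% at 7 d. In 32 members it did so in all 4 settings, beside 4.04% of all kept probes. It exceeded the mean of both particles in 37 and 16 members at 3 d and in 21 and 39 at 7 d. The shares of all kept probes were then 53.4% and 50.4% at 3 d and 50.9% and 56.9% at 7 d. The member level of AgNO3 helped to choose the members as low and that of the particles as high, so that these counts are given as a description. Across the 100 members the mean D and the mean log2 fold change with Ag NM300K had a Pearson r of 0.43, a description over probes, which are not independent and share their arrays.

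More members were called for time in silver-free soil than with Ag NM300K, as were more of all kept probes, so that the counts alone give no ranking. Between 3 and 7 d, 32 members were called higher and 1 lower in un-spiked soil, and 27 higher and 0 lower in soil with the dispersant. Of all kept probes, 4.9% were called higher and 2.18% lower in un-spiked soil, and 4.66% higher and 4.51% lower in soil with the dispersant. The calls of both soils, which share no arrays, had 21 members in common, 65.6% of those called higher in un-spiked soil and 77.8% of those in soil with the dispersant. Over all kept probes, 531 were called higher in both soils, 46.8% and 49.2% of the calls of each soil, and the difference of these overlaps was not tested. The median log2 fold change was 0.34 (68 members above 0) and 0.51 (78 above 0), against -0.02 and -0.06 over all kept probes. On the scale of SVCD normalization 42 members were called higher in un-spiked soil with a median of 0.60, and so were 17.5% of all kept probes, while 1.01% were called lower. The fit to the 24 arrays alone called 24 members higher and 0 lower in un-spiked soil, beside 2.98% and 1.11% of all kept probes. In soil with the dispersant it called 23 higher and 1 lower, beside 3.25% and 2.86%. The methods' t-test called 0 members, and 0% of all kept probes, in both soils. Within scan days the medians were 0.58 in un-spiked soil and 0.54 and 0.70 in soil with the dispersant. Over all kept probes they were 0.01, -0.03 and -0.10. With the slide as a block the calls fell to 10 and 17, beside 1.78% and 3.4% of all kept probes called higher. With normexp background correction they fell to 5 and 10, beside 0.79% and 1.73%. Without Control 3d replicate 3 or Control 7d replicate 2 there were 17 calls in un-spiked soil, beside 1.86% and 1.79% of all kept probes. Without Control 3d replicate 2 or Control 7d replicate 1 there were 21, beside 3.26% and 3.08%. Without Control dispersant 3d replicate 2 there were 13 calls in soil with the dispersant, beside 1.85%. Shares given without a direction are those called higher.

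The largest of these rises was that of GYUW2K402FYARD, by 4.24 ± 0.89 in un-spiked soil (adjusted p = 0.00246) and 4.51 ± 0.89 in soil with the dispersant (adjusted p = 0.00102). GYUW2K402H5VPK measured -0.81, -2.15 and -2.94 in Control at 3 d and -0.05, 0.48 and 0.35 at 7 d, and rose by 2.23 ± 0.49 (adjusted p = 0.00346) in un-spiked soil and by 2.40 ± 0.49 (adjusted p = 0.00136) in soil with the dispersant. GYUW2K402F97GP rose by 0.998 ± 0.27 (adjusted p = 0.0155) and 1.05 ± 0.27 (adjusted p = 0.00792). The member called lower was contig14080 (CUST_16941_PI427420766_b), named after its values were seen, with 1.56, 2.45 and 2.19 at 3 d and 1.16, 0.87 and 1.54 at 7 d in Control, where it fell by 0.87 ± 0.26 (adjusted p = 0.0298). In soil with the dispersant its change of -0.40 ± 0.26 had an adjusted p of 0.387.

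The 38 members called higher at 7 d in either soil differed in level pattern from the other 62. This split was made after the values were seen and is a description. It used the levels of silver-free soil at 3 and 7 d, so that the rise of the 38 there was set by the split. The mean E of the 38 was -0.70 ± 0.33 in Control at 3 d and 0.97 ± 0.19 at 7 d, and at 3 d it was 0.29 ± 0.46 and 0.19 ± 0.87 with AgNO3 EC20 and EC50, 0.63 ± 0.27 and 0.81 ± 0.30 with Ag NM300K, and 0.96 to 1.41 with the particles. At 3 d the particle groups lay near the level of silver-free worms at 7 d, 0.97 in Control and 1.16 in Control dispersant. Both sides of this comparison were selected, the particles as high by the rule and silver-free soil at 7 d by the split. No conclusion is drawn from it. The other 62 members had -1.16 ± 0.23 and -1.19 ± 0.13 in Control at 3 and 7 d, -1.38 ± 0.34 and -1.16 ± 0.17 with AgNO3 EC20 and EC50 at 3 d, and -0.66 to -0.43 with the particles at 3 d. In these, AgNO3 at 3 d was near or below the level of silver-free soil. The median mean D at 3 d was 0.83 in the 38 and 0.74 in the 62, and at 7 d it was 0.34 and 0.45. Of the 18 members called with Ag NM300K, 13 were among the 38. The comparisons of Ag NM300K at 3 d and of time in soil with the dispersant share the control arrays of 3 d, and 12 members were called in both. The same overlaps were not counted over all kept probes, so that nothing is read from these counts.

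The dispersant alone moved no member past the threshold. At 3 d, 1 member was called higher on the scale of SVCD normalization, where 5.45% of all kept probes were called higher, and 1 without Control dispersant 3d replicate 2, where 1.82% were. In the comparison of Control dispersant with Control, limma called 0 members at 3 d and 0 at 7 d, with 10 and 3 members at an unadjusted p under 0.05, beside 11.8% and 3.57% of all kept probes. Of all kept probes 0.298% were called higher and 0.0604% lower at 3 d, and 0% in either direction at 7 d. The methods' t-test also called 0 members, and 0% of all kept probes, on both days. The fit to the 24 arrays alone called 0 members on both days, with 0.0129% and 0% of all kept probes called higher at 3 and 7 d. The median log2 fold change of the members was 0.11 at 3 d and 0.15 at 7 d. The change of the dispersant effect between days was called in 0 members and in 0% of all kept probes, with 6 members, and 8.37% of all kept probes, at an unadjusted p under 0.05.

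**Figure D5:**
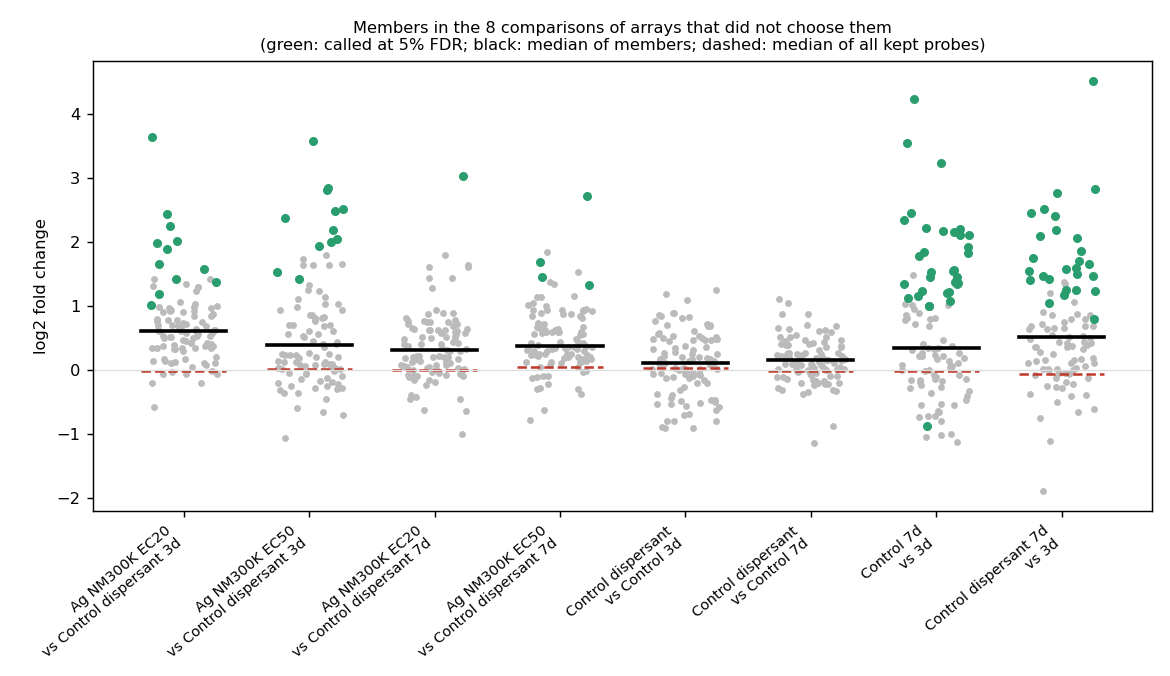
Log2 fold changes of the 100 members in the 8 comparisons of arrays that did not choose them, with called members in green, others in grey, the median of the members as a black line and that of all kept probes as a dashed line. Called members number 12 and 12 with Ag NM300K at 3 d, 1 and 4 at 7 d, 0 for the dispersant, and 33 and 27 for time in silver-free soil.

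The members were dimmer than the kept probes at large, with a median of their mean log2 signal of 6.09 against 6.58, from 3.50 to 14.3. Of the members, 50 were well above background on all 60 arrays, against 71.8% of all kept probes. Single reads made up 61 of the 100 members and 51.8% of the kept probes, and the other 39 members came from contigs. Each member had its own identifier. They were spread over the array, with 24 to 26 members in each of 4 equal blocks of rows and 20 to 29 in each of 4 blocks of columns, and no spot of a member carried an outlier flag.

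Within groups the members varied together to a small degree. In the 24 arrays that did not choose them, the deviations from the group means had a median pairwise Pearson r of 0.06 over 4950 pairs, with 14.3% of the pairs above 0.5, beside 0.004 and 8.49% among 2000 kept probes drawn at random. In the 36 arrays that chose them these values were 0.15 and 16.02%, beside -0.001 and 7.01%. These pairs share their arrays and are not independent.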

How the data were processed

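The authors read 1-colour Agilent arrays of 60 samples with Feature Extraction 10.7.3.1 (per the file headers) and deposited, for each spot, a background-corrected intensity (processed signal), the median intensities of spot and background, and flags. Kept probes were positive and significant on all 60 arrays. Values are log2 of the processed signal minus the array median (Median normalization). The members and lists were chosen with earlier results of these data known. Lists of known genes could not be applied, because the files name only contigs and reads.

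Tests used limma 3.58.1 in R 4.3.3 (lmFit, contrasts, eBayes, two-sided), with 20 group means fitted to all 60 arrays, outlier spots (308 in kept probes, none in members) set missing, Benjamini-Hochberg adjustment over 23179 probes and a false discovery rate below 5%. Replicates were pools of worms, 3 a group, and this number limits the precision. Descriptions used Python 3.11.15. The rule was tried on simulated data, as was the limma fit of Ag NM300K EC20 at 3 d with Median and SVCD normalization. The other fits were not.

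Named members were the 3 with the highest mean D, of the members called in the most tests those with most calls higher and lower, those furthest above and below un-spiked soil, the brightest, and the probes at either side of the cut. Others are marked in the text. Of the 6 members with 4 calls, all calls were higher, so that the rule named no member called lower.

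Same-numbered arrays of compared groups had correlations of their deviations from -0.50 to 0.46, with 8 of 24 pairs above 0.1. By every pair above 0.1, the numbers paired the samples in 1 comparison, that of time in soil with the dispersant (0.16, 0.25 and 0.44), and in no other of the 8.

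Alternatives were SVCD, Quantile and 75th percentile normalization, normexp (offset 50) on median signals, probes well above background on all arrays, slide, scan day and replicate number as blocks, the 24 arrays alone, the methods' t-test, and leaving out arrays. Blocks and within-day values of D and the tests of change between days were chosen after seeing the data. The authors' processed series table repeats the intensity and was not used.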

Additional observations from a re-analysis of the deposited data

How the results depend on the processing

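Of the results recomputed under each alternative, 119 values stayed within the set range, 59 moved and none reversed. The range was a ratio of at most 1.5 for counts and the SD over 3 replicates for medians. Counts of 0 both in the report and under an alternative were taken as within it. Counts of members chosen again and settings with 0 calls could not reverse, and the median mean D was read in members chosen to be above 0. The tally is thus no measure of how firm the results are. Causes were not tested. Members were called in 8 comparisons, and counts are given as members called. SVCD normalization gave 12 with Ag NM300K EC50 at 7 d (4 in the report) and 1 for the dispersant at 3 d (0 in the report), and medians of particles and of AgNO3 minus Control of 1.35 and 0.36 at 3 d and of 0.34 for AgNO3 at 7 d. It moved the median of all kept probes up by 0.26 for time in un-spiked soil, 0.18 for the dispersant at 3 d, 0.14 for Ag NM300K EC50 at 7 d and 0.11 for time in soil with the dispersant. With normexp the counts were 1 with Ag NM300K EC20 at 3 d, 0 at both doses at 7 d, and 5 and 10 for time. The shares of all kept probes called higher were 0.0173%, 0.00863% at both doses, and 0.79% and 1.73%. The rule then chose 34 of the 100 members again, their median mean D was 0.26, and the medians of particles minus Control were 0.36 and 0.28 and that of AgNO3 at 7 d 0.052. Among probes well above background on all arrays, which hold 50 of the members, 47 were chosen again, 6 and 2 were called with Ag NM300K EC20 at 3 and 7 d and 20 for time in un-spiked soil, and the medians of particles and AgNO3 minus Control at 3 d were 1.13 and 0.39. The slide as a block gave 3 with Ag NM300K EC20 at 7 d and 10 and 17 for time. The shares of all kept probes called higher were 1.15%, 1.78% and 3.4%. The scan day as a block gave 2 with Ag NM300K EC20 at 7 d, beside 0.418% of all kept probes. A fit to the 24 arrays alone gave 5 and 0 with Ag NM300K EC20 at 3 and 7 d and 1 with EC50 at 7 d. The shares of all kept probes called higher were 0.0992%, 0% and 0.0129%. The methods' t-test called 0 members in all 8 comparisons, and at most 0.00431% of all kept probes in either direction.

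With 1 array left out, the counts ranged from 6 to 14 and from 9 to 23 with Ag NM300K EC20 and EC50 at 3 d. They were 0 with EC20 and 0 to 3 with EC50 at 7 d, and 0 to 1 for the dispersant at 3 d. For time they were 17 to 31 in un-spiked soil, where the 31 hold 1 called lower, and 13 to 33 in soil with the dispersant. The shares of all kept probes called higher were, in this order, 0.194% to 0.742%, 0.233% to 1.96%, 0% to 0.0216%, 0% to 0.725%, 0.069% to 1.82%, 1.79% to 5.39% and 1.85% to 6.0%. Without 1 replicate number the rule chose 36 to 52 of the members again. Without 1 Control array, the median of particles minus Control at 3 d was 0.93 to 1.12 and that of AgNO3 0.12 to 0.31.

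With the replicate number as a block (replicate block) the counts were 12, 12, 1 and 4 with Ag NM300K, 0 and 0 for the dispersant and 33 and 27 for time, as without it. Precision was limited by 3 arrays a group.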
